A study of Mus musculus with 16 samples.

Results

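Binding of the transcription factor Myc was compared between activated T cells and activated B cells from mouse spleen, both sampled 4 h after stimulation. The comparison rests on 5 of the 16 libraries of the series, namely the Myc and IgG libraries of T cells (called T4), the Myc and IgG libraries of B cells with reads of similar length (B4 replicate 1), and a repeat Myc library of B cells (B4 replicate 2). They were chosen by cell type, time and read length from the sample titles and files, not by measured binding. Earlier results of these data were known when they were chosen. The IgG library titled as a repeat served as the control of B4 replicate 2, and 6 further libraries were set beside these.

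T4 cells were labelled as resting T cells and received 7.5 µg/ml of concanavalin A (ConA), a plant lectin that activates T cells by cross-linking surface glycoproteins, for 4 h. B4 cells were labelled as quiescent B cells and received 25 µg/ml of lipopolysaccharide (LPS), a bacterial product that activates B cells through a Toll-like receptor, for 4 h. In both, chromatin was immunoprecipitated with an antibody to EGFP, the tag through which Myc was recovered, and control libraries were made with a non-specific IgG. Strain, age, sex and the construct that carries the tag were not given in the sources used here, nor was whether libraries came from separate animals. Agent and cell type changed together, so an effect of ConA against LPS cannot be told apart from one of T against B cells.

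Myc is a basic helix-loop-helix leucine zipper protein that binds DNA as a pair with Max, with a preference for E-box sequences. It is found mainly at promoters and other accessible chromatin that already carry RNA polymerase II (Pol2). Resting lymphocytes hold little Myc, and antigen receptor or mitogen signals induce it within hours, ahead of growth and division. The title of the series calls Myc an amplifier of gene expression at large, and the 4 h libraries allow the sites of 2 lymphocyte types to be set side by side.

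Read numbers on chromosomes 1 to 19 were 4429042 for T4 Myc, 1774572 for T4 IgG, 2141694 and 3367741 for Myc and IgG of B4 replicate 1, and 3099793 and 5119994 for those of B4 replicate 2. Reads were 25 bases long in T4, 24 to 30 in B4 replicate 1 and 45 in B4 replicate 2. The estimated strand offset, a measure of fragment length, was 91 bases in T4 Myc and 100 in Myc of B4 replicate 1, and longer in B4 replicate 2. X chromosome reads were 52.2 and 57.5% of chromosome 3 reads in the T4 libraries and 65.9 to 69.8% in the 4 B4 libraries. Y chromosome reads in RPM, which here scales reads to the library's reads on chromosomes 1 to 19, were 315 and 480 in T4 against 15.7 to 140 in B4. The T4 and B4 libraries therefore differed in X and Y content, and the part of that difference in the results was not tested. Each condition and antibody had 1 library except B4, so values below carry counting error or spread over regions, not error between animals.

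Myc regions were fewer in T4 than in B4 replicate 1 and of a number near that of B4 replicate 2. At a common depth of 2141694 Myc and 1774572 IgG reads, 237 regions were called in T4, 1846 in B4 replicate 1 and 342 in B4 replicate 2. A region is a run of 500-base bins in which Myc exceeded IgG at least 4-fold with a Benjamini-Hochberg value below 0.01 in a Poisson test, which compares 2 libraries and not 2 conditions. Of 4925420 bins tested, 0.00497% were called in T4, 0.0398% in B4 replicate 1 and 0.00723% in B4 replicate 2. With Myc and IgG exchanged, and so with fewer reads on the tested side, the same call gave 37, 58 and 0 regions. Most regions were a single bin, at 96.6, 94.0 and 96.8%. The 2 B4 libraries differed from each other in region number more than T4 differed from B4 replicate 2 at this depth. Without thinning, T4 gave 999 regions and B4 replicate 2 gave 621, and with all deposited reads kept B4 replicate 1 gave 3549. All 6 libraries were also thinned to 1774572 reads, a setting chosen after seeing the data. The call then gave 149 regions in T4, 1545 in B4 replicate 1 and 195 in B4 replicate 2. Exchanging Myc and IgG at that equal depth gave 42, 63 and 0.

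Many T4 regions were also called in B cells. Of the 237 T4 regions, 101 overlapped a region of B4 replicate 1 (42.6%, 95% Clopper-Pearson interval 36.2 to 49.2%), and 46 overlapped one of B4 replicate 2 (19.4%, 14.6 to 25.0%). Read from the B cell side, 5.47% (4.48 to 6.61%) of the regions of B4 replicate 1 overlapped a T4 region. Between the B4 libraries, 150 of the 342 replicate 2 regions had a counterpart in replicate 1 (43.9%, 38.5 to 49.3%). As a share of the longer list of replicate 1 this was 8.13% (6.92 to 9.47%). The share of T4 regions found in B4 replicate 1 at matched depth lay within the interval of the share of repeat B cell regions found there. It depended on depth: without thinning 27.6% of T4 regions overlapped B4 replicate 1, and 15.8% of B4 replicate 1 regions overlapped T4. Where T4 and B4 replicate 1 overlapped, the summit lay in the same 500-base bin at 92 of 101 regions, and for the 2 B4 libraries at 141 of 150.

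Levels were then read at the 342 regions called in B4 replicate 2, a library that enters neither side of the comparison. It is a library of B cells given LPS, as is B4 replicate 1, so the list can favour sites of B cells over those of T cells. In T4, Myc exceeded IgG 3.12-fold over these regions (95% exact binomial interval 2.88 to 3.39). In B4 replicate 1 the excess was 6.57-fold (6.05 to 7.14). The intervals did not overlap, and Myc was above IgG in both cell types. Enrichment per region was the log2 ratio of Myc to IgG, each in RPM within 1 kb centred on the summit bin and raised by 0.5 RPM. Its median was 1.24 (1.15 to 1.48) in T4 and 2.14 (1.99 to 2.35) in B4 replicate 1, and the median difference per region was −0.78 (−0.96 to −0.51). T4 was the higher at 104 of the 342 regions (30.4%). Myc reads of T4 were 0.546 times those of B4 replicate 1, and IgG reads 1.15 times.

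**Figure D1:**
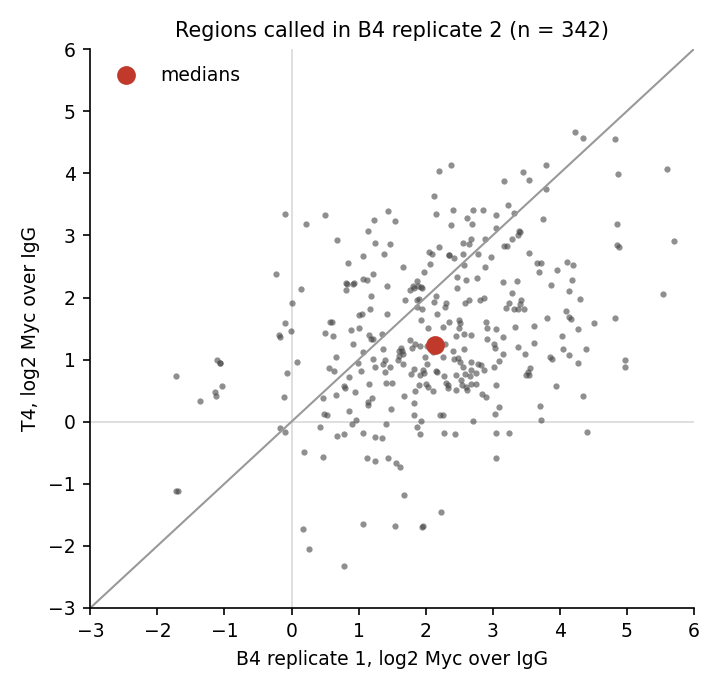
Log2 enrichment of Myc over IgG at the 342 regions called in B4 replicate 2, with B4 replicate 1 on the x axis and T4 on the y axis. Each grey point is 1 region, moved by up to 0.06 at random so that ties can be seen, and the line marks equal values. Most points lie below the line, and the medians (red) are 2.14 and 1.24.

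The regions varied widely around these medians. In T4 the enrichment ran from −2.37 to 4.66, with quartiles of 0.63 and 2.24, and in B4 replicate 1 from −1.70 to 5.66, with quartiles of 1.24 and 3.07. Enrichment was at or below 0 at 39 regions in T4 and 19 in B4 replicate 1. The difference between them had quartiles of −1.80 and 0.26. Single regions therefore gave differences in both directions.

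The 2 B cell libraries also differed from each other. At the 1846 regions called in B4 replicate 1, which T4 and B4 replicate 2 did not enter, Myc exceeded IgG 2.45-fold (2.36 to 2.55) in T4 and 2.74-fold (2.63 to 2.86) in B4 replicate 2. The median log2 difference of T4 minus B4 replicate 2 was 0.00 there (−0.05 to 0.06), and T4 was the higher at 48.3% of regions. At the 237 regions called in T4, the fold was 6.45 (5.84 to 7.12) in B4 replicate 1 and 3.91 (3.51 to 4.36) in B4 replicate 2. B cells thus had Myc above IgG at T cell sites in both libraries. Where Myc over IgG was lower, 3 readings cannot be told apart in these bulk libraries. They are fewer bound cells, less Myc per cell, and a difference between libraries like that of the 2 B4 replicates.

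**Figure D2:**
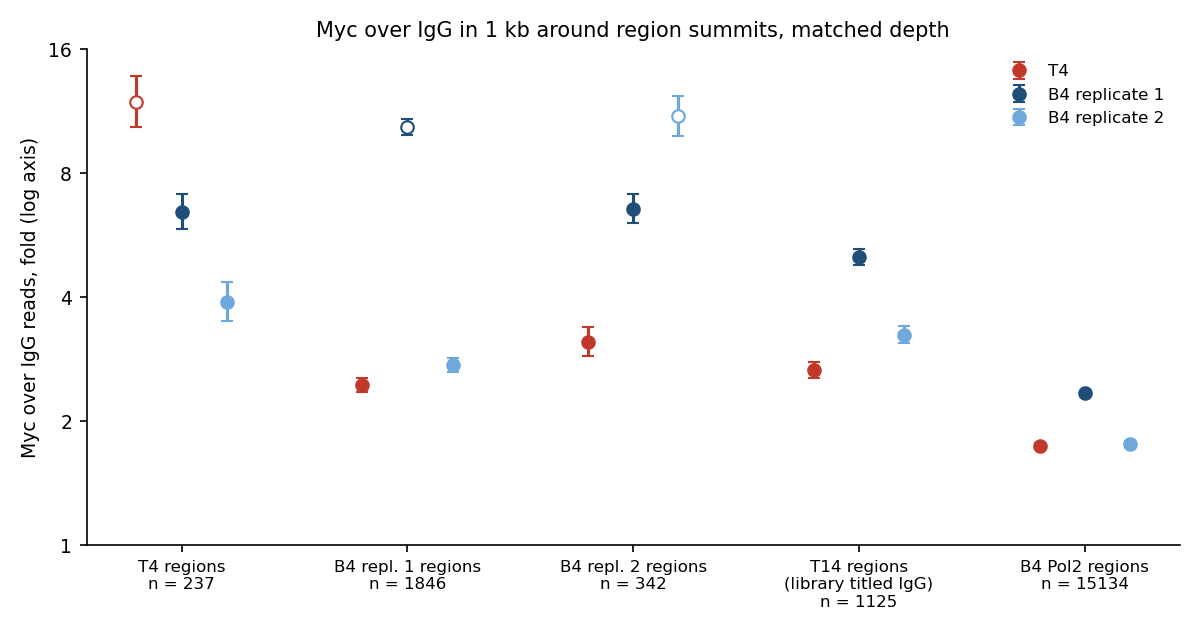
Ratio of Myc to IgG reads (log axis) summed over 5 lists of regions in T4, B4 replicate 1 and B4 replicate 2, with 95% exact binomial intervals. Open symbols mark the library that chose the list. At lists chosen elsewhere B4 replicate 1 is the highest, and T4 lies near B4 replicate 2 at the B4 replicate 1 and Pol2 regions.

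The Myc signal was centred on the summits in both cell types. At the regions of B4 replicate 2, the mean Myc level within 200 bases of the summit was 7.16 times that at 1500 to 2000 bases in T4 and 13.2 times in B4 replicate 1. IgG was raised 2.18 and 1.80 times over the same distances, so the control was also higher at the summits. The highest Myc point lay at the summit in T4 and B4 replicate 1.

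**Figure D3:**
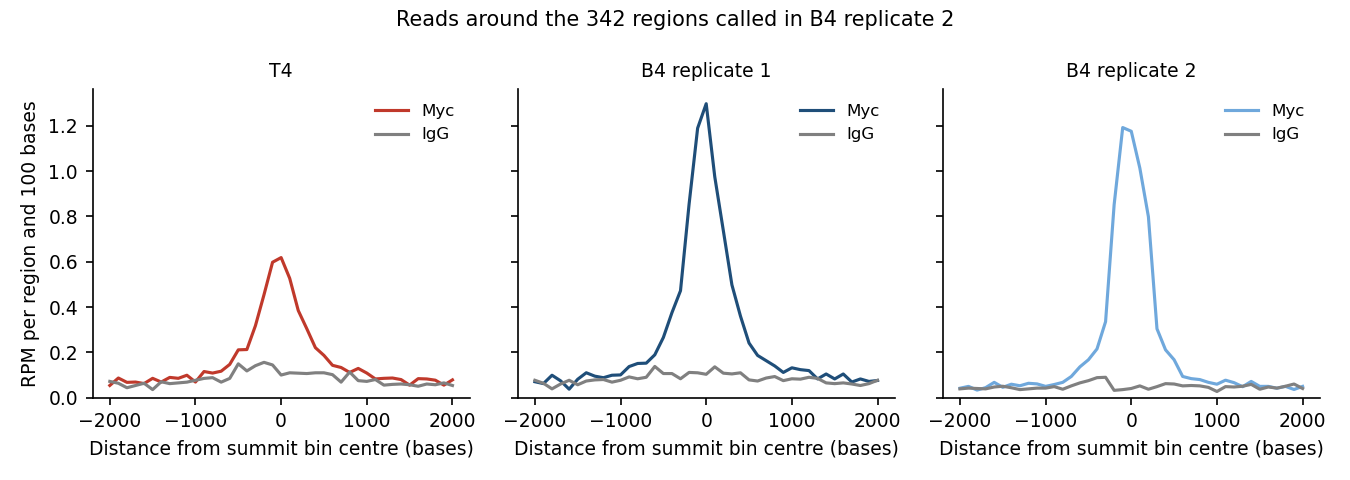
Myc (colour) and IgG (grey) in RPM per region and 100 bases, against distance from the summit of the 342 regions called in B4 replicate 2. Myc peaks at 0.618 in T4 and 1.30 in B4 replicate 1, while IgG stays at or below 0.157 in all 3 panels.

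Pol2-carrying sites of B cells were the setting of most Myc regions of both cell types. Pol2 was called in B4 with the library and IgG control whose titles carry the mark wt, which the labels do not explain. It gave 15134 regions, and 0.449% of bins were called. A Pol2 region overlapped 73.8% (67.8 to 79.3%) of T4 Myc regions, 61.8% (59.5 to 64.0%) of those of B4 replicate 1 and 83.3% (79.0 to 87.1%) of those of B4 replicate 2. No Pol2 library of T cells was analysed here, so T4 Myc was set against Pol2 of B cells. T4 regions on a B4 Pol2 region had a B4 replicate 1 fold of 7.31 (6.55 to 8.18) and a B4 replicate 2 fold of 4.36 (3.87 to 4.93). The 62 T4 regions off Pol2 had 3.22 (2.57 to 4.07) and 2.26 (1.76 to 2.92). B cell Myc was therefore lower at the T4 regions that lacked B cell Pol2.

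Over all 15134 Pol2 regions the fold of Myc over IgG was 1.75 (1.72 to 1.77) in T4, 2.34 (2.31 to 2.37) in B4 replicate 1 and 1.76 (1.73 to 1.79) in B4 replicate 2. It was lower at lower Pol2 levels in all 3, apart from the eighth decile of T4 (1.47, against 1.46 in the seventh). In the decile of highest Pol2 it was 2.28 (2.19 to 2.37) in T4, 4.08 (3.93 to 4.23) in B4 replicate 1 and 2.61 (2.51 to 2.72) in B4 replicate 2. In the lowest decile it was 1.23 (1.15 to 1.31), 1.20 (1.13 to 1.27) and 0.993 (0.931 to 1.06). T4 and B4 replicate 1 thus lay apart in the upper deciles and had overlapping intervals in the lowest 3. Across these regions the Spearman correlation of Myc levels was 0.41 between T4 and B4 replicate 1, 0.39 between T4 and B4 replicate 2 and 0.42 between the B4 libraries. The points of a pair share the Pol2 regions they were chosen at, and IgG levels had correlations of 0.046 to 0.062.

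**Figure D4:**
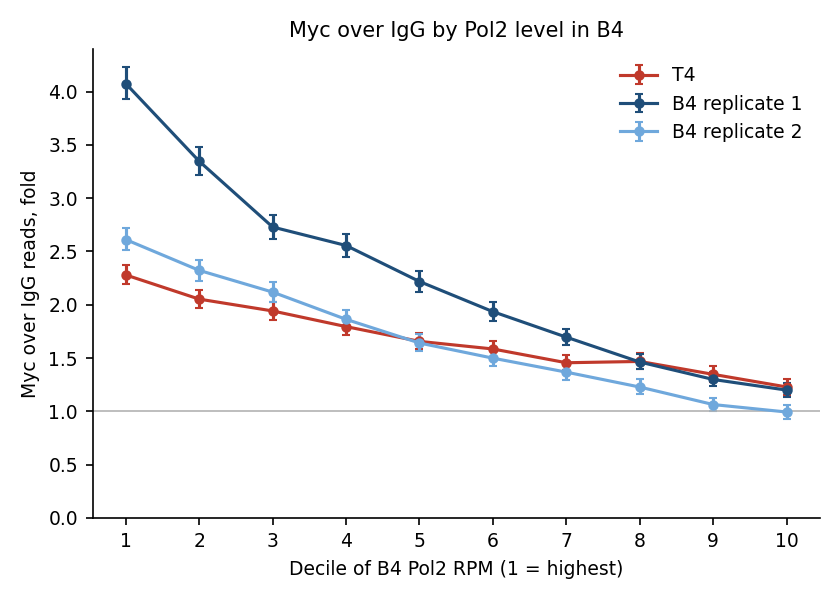
Ratio of Myc to IgG reads in deciles of B4 Pol2 level (1 is the highest), with 95% exact binomial intervals, in T4, B4 replicate 1 and B4 replicate 2. B4 replicate 1 stands at 4.08 in the first decile, against 2.28 in T4 and 2.61 in B4 replicate 2, and the intervals of T4 and B4 replicate 1 overlap from the eighth decile on.

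Later T cells and untreated B cells were set beside the 4 h values. T cells given ConA for 14 h (T14) have 2 libraries whose titles and file names give opposite antibodies, so each is called by its title and its label is in doubt. The library titled IgG over the one titled Myc gave 1125 regions (0.0247% of bins), and the reverse gave 9 (0.000325%). Of the T4 Myc regions, 42.6% (36.2 to 49.2%) overlapped one of the 1125, against 20.4% (18.6 to 22.3%) of the regions of B4 replicate 1 and 37.7% (32.6 to 43.1%) of those of B4 replicate 2. The intervals of T4 and B4 replicate 2 overlap. With the titles taken as they stand, 0 regions of T4 or of either B4 library overlapped one of the 9. At the 1125 regions the fold was 2.67 (2.55 to 2.79) in T4, 5.01 (4.79 to 5.24) in B4 replicate 1 and 3.25 (3.09 to 3.41) in B4 replicate 2. In untreated B cells (B0) the fold at T4 regions was 1.43 (1.30 to 1.58), below that of both B4 libraries.

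Of the 1974 regions in the union of the T4 and B4 replicate 1 lists, 44 were called in T4 and in both B4 libraries. A B4 Pol2 region overlapped 42 of these 44, and one of the 1125 T14 regions of the library titled IgG overlapped 40. The list was ranked by the lower of the T4 and B4 replicate 1 enrichments, and the 8 highest are described by reads in 1 kb. These counts are without thinning, after reads sharing a strand and 5′ end were reduced to 1. T4 Myc held 30 to 51 reads at them, with 0 IgG reads in every one. Low IgG in T4 and in B4 replicate 1 helped to choose these regions, and the T4 IgG library had the fewest reads. The IgG counts are therefore not compared between libraries.

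At chr11:59862501-59863000 there were 41 Myc reads in T4 (9.26 RPM), 53 in B4 replicate 1 (24.7 RPM) and 31 in B4 replicate 2, with 0, 2 and 6 IgG reads. At chr6:86492001-86493000 there were 51, 47 and 49 Myc reads over 0, 3 and 1 IgG reads, or 11.5, 21.9 and 15.8 RPM. Both regions carried Myc in all 3 libraries, with T4 lowest in RPM. At chr4:147435001-147436000 there were 34, 29 and 39 Myc reads over 0, 0 and 2. At chr11:6428501-6429000 there were 46, 43 and 36 over 0, 3 and 9. At chr2:143962001-143962500 there were 30, 41 and 25 over 0, 3 and 2. T4 was the lowest in RPM at each of these 3 as well.

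The other members were chr8:63875501-63876000 (31, 40 and 16 Myc reads), chr8:18846001-18846500 (33, 30 and 17) and chr5:129334501-129335000 (31, 23 and 24). T4 Myc RPM was below B4 replicate 1 at all 8 regions and below B4 replicate 2 at 6. Log2 enrichment was 3.86 to 4.59 in T4, 3.36 to 4.81 in B4 replicate 1 and 2.14 to 4.55 in B4 replicate 2, and these ranges overlap.

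The balance of T4 against B4 Myc in the union depended on the library that filled it. The exact 95% interval of the Myc ratio lay above 1 at 15 of the 1974 union regions and below 1 at 1082, and it held 1 at 877. Of the 1974 regions 1738 were called in B4 replicate 1 and not in T4, and these hold 1029 of the 1082. Among the 129 called in T4 and not in B4 replicate 1, the counts were 15 above and 1 below. Against B4 replicate 2 the interval lay above 1 at 122 union regions and below 1 at 59. T4 helped to choose the union and B4 replicate 2 did not, so this balance leans towards T4. The 129 regions of T4 gave 43 above and 0 below. The 1738 called in B4 replicate 1 and not in T4 gave 69 above and 54 below. The ratios to B4 replicate 1 were used to choose the 8 regions that follow, so they are given as a description. At chr2:74470501-74471000 there were 37 Myc reads in T4 over 1 IgG read, against 1 Myc read over 6 in B4 replicate 1 and 2 over 7 in B4 replicate 2. The T4 ratio to B4 replicate 1 was 17.9 (3.02 to 726), and to B4 replicate 2 it was 12.9 (3.34 to 111). At chr7:102068501-102069000 there were 38 over 4 in T4, 4 over 2 in B4 replicate 1 and 0 over 5 in B4 replicate 2. These 2 were the T4 regions with the most reads in the list, and neither overlapped a B4 Pol2 region.

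At chr3:104155501-104156000 T4 held 17 Myc reads and the B4 replicates 0 and 3, 2.74-fold higher than B4 replicate 1 with its 0 set to a floor of 3 reads, and at least 2.0-fold by the exact 95% lower limit. At chr13:92105501-92106000 the counts were 17 against 0 and 6, with the same fold and limit. At chr17:27984501-27985000 they were 14 against 0 and 3, and at chr11:117124501-117125000 13 against 0 and 2, 2.26 and 2.10-fold against the floor, with lower limits of 1.60 and 1.47. At chr3:95192001-95192500 they were 13 against 0 and 6, and at chr6:47765001-47765500 18 against 1 and 7. T4 RPM exceeded both B4 libraries at all 8, and the interval against B4 replicate 2 lay above 1 at 4 of 8. B4 replicate 2 did not choose these regions, but the high T4 reads did. Each was called in T4 and in neither B4 library, so these counts lean towards T4 and are no separate check.

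The regions with the opposite sign held at most 3 T4 Myc reads. At chr5:140929501-140930000 there were 0 in T4, 18 in B4 replicate 1 and 5 in B4 replicate 2, so that B4 replicate 1 was 12.4-fold higher with the T4 value set to 3 reads, and at least 9.09-fold by the exact 95% lower limit. At chr15:79184001-79184500 there were 0, 14 and 4 (9.65-fold against 3 reads, lower limit 6.86), and at chr2:143922501-143923000 there were 0, 12 and 0 (8.27-fold, lower limit 5.75). At chr11:102248501-102249000 there were 3, 22 and 7, a ratio of 15.2 (4.56 to 79.1). The counts were 2, 18 and 5 at chr13:73954501-73955000, 0, 11 and 3 at chr2:154276501-154277000, 0, 11 and 0 at chr11:79993001-79993500 and 0, 10 and 2 at chr12:109979501-109980000. B4 replicate 2 held 0 to 7 Myc reads at these 8, in a library deeper than B4 replicate 1, and its RPM was above T4 at 6 of them. Low T4 reads helped to choose these regions, so that last count is no separate check.

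**Figure D5:**
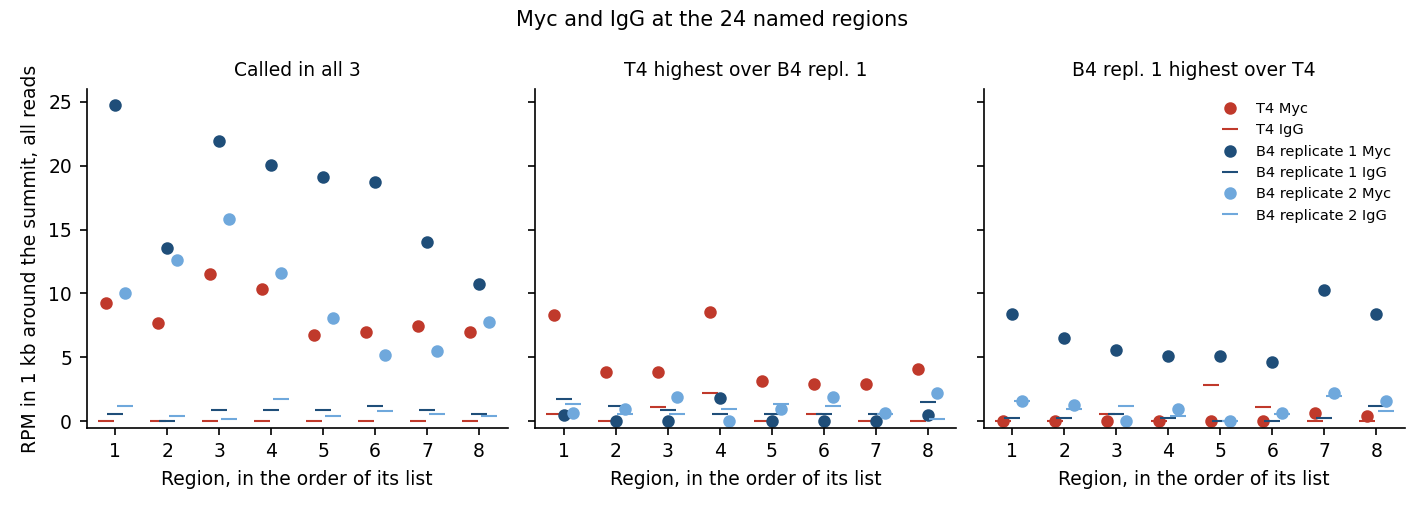
Myc (points) and IgG (dashes) in RPM at the 24 regions described, in the order of their lists: called in all 3 libraries, T4 highest over B4 replicate 1, and B4 replicate 1 highest over T4. In the first panel all 3 Myc libraries lie above 5 RPM, in the second T4 reaches 8.58 RPM, and in the third B4 replicate 1 stands alone, with B4 replicate 2 at or below 2.26.

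Around the 2 T4 regions with most reads, Myc reads were spread over a wider stretch, which was noticed after the values were seen. Over chr7:102030001-102080000 the fold of Myc over IgG was 2.14 (1.58 to 2.94) in T4, 1.15 (0.819 to 1.61) in B4 replicate 1 and 0.760 (0.554 to 1.03) in B4 replicate 2. In 5 kb steps the T4 Myc count ran from 6 to 80, so the excess was uneven. Over chr2:74450001-74490000 the fold was 1.70 (1.21 to 2.42) in T4 and 1.63 (1.18 to 2.27) in B4 replicate 1, whose intervals overlap, and 1.12 (0.781 to 1.60) in B4 replicate 2.

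A test over libraries called no window as different between T4 and B4. limma with voom weights was fitted to 19965 windows of 1 kb in the 2 T4 and 4 B4 libraries, for the change in Myc over IgG. With 2 residual degrees of freedom it called 0 windows higher and 0 lower in T4 at a Benjamini-Hochberg value below 0.05 (0% of windows), and an unadjusted p below 0.05 was reached by 377, 375 of them lower in T4. limma-trend called 0 as well, and 138 of its 608 such windows were higher. Both counts, 377 and 608, are a smaller share of the 19965 windows than the 0.05 that no change would give. Their directions are therefore not read as a result. In simulated libraries of this design the fit recovered 8-fold changes at 1 window in 100 and 64-fold changes at 48 in 100, so changes of the size described above were not detectable by it.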

How the data were processed

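The deposited files list aligned reads, 1 per line, with positions, length and strand. They hold no counts or scores. CASAVA 1.0 and Bowtie 0.12.7 and build mm8 were named, per the submitters' processing notes, with no settings. The files do not say if the first base is 0 or 1, so coordinates may be off by 1 base. Genes were not assigned and no sequence is printed, because no mm8 genome or annotation was used here.

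Reads sharing a strand and 5′ end were reduced to 1, which removed 5.26% of reads in Myc of B4 replicate 1, 0.0796% in its IgG and none in the other libraries. The libraries shared at most 0.466% of positions in any pair of the 6, and each was counted on its own. Reads were moved to the fragment centre by each library's strand offset and thinned at random to 2141694 (Myc) and 1774572 (IgG). IgG was scaled by read number, and each 500-base bin was tested against whichever rate was highest, the genome mean or that of IgG in the bin, in 5 kb or in 10 kb. Simulated 32-fold bins were recovered at 86.5, 82.0 and 90.0% in T4 and the 2 B4 replicates, and 8-fold bins at 5.0, 4.5 and 2.5%. Intervals cover counting error or spread over regions only.

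limma 3.58.1 in R 4.3.3 was used for the windows, and numpy 2.4.6, scipy 1.17.1 and pandas 2.3.3 for the rest. The lone T4 libraries are assumed in it to vary like the B4 libraries. Regions described were the 8 per list called in all 3 libraries with the highest lower enrichment, and the 8 with the highest lower bound of the T4 to B4 replicate 1 ratio or its inverse, at least 10000 bases apart. The groups, members and lists were chosen with earlier results of these data known. Libraries of cells given an inhibitor of Myc and Max pairing were not used.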

Additional observations from a re-analysis of the deposited data

Results flagged for a closer look

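At 3 of the regions described, T4 enrichment had the opposite sign to both B4 libraries. limma's test of the change in Myc over IgG, with Benjamini-Hochberg adjustment, called neither of the 2 that passed its read minimum. At chr2:74470501-74471000 the log2 enrichment was 3.06 in T4, against −1.24 in B4 replicate 1 and −0.71 in B4 replicate 2, and limma gave a log2 change of 4.40 (SE 3.21, adjusted p 1.00). At chr17:27984501-27985000 it was 2.87 in T4, against −1.13 and −0.35, from 14 T4 Myc reads, and limma gave 5.22 (SE 3.42, adjusted p 1.00). At chr12:109979501-109980000 it was −1.70 in T4, from 0 Myc and 2 IgG reads, against 3.37 and 0.08, and this difference was not tested.

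The T14 library titled IgG, in which no Myc signal would be looked for, exceeded the one titled Myc 9.75-fold (8.54 to 11.2) at the 237 T4 regions. File names and titles give opposite antibodies for these libraries.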

How the results depend on the processing

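The median T4 minus B4 replicate 1 at the regions of B4 replicate 2 stayed negative under all 12 alternatives, from −0.88 to −0.22. It was −0.50 without thinning and −0.22 at Pol2 regions. None of these alternatives put B4 replicate 2 in the place of B4 replicate 1. Against B4 replicate 2, the median T4 difference at Pol2 regions was 0.00 (0.00 to 0.07), so the lower T4 value there depended on the B4 library used. The folds of T4 and B4 replicate 1 were 4.16 and 8.84 in 500-base windows, 2.42 and 4.34 in 2 kb windows, 3.41 and 7.17 with background scaling and 1.75 and 2.34 at Pol2 regions. Without thinning that of B4 replicate 1 was 5.44, and with all 6 libraries at 1 depth, chosen after seeing the data, that of T4 was 3.47. Region counts for T4, B4 replicate 1 and B4 replicate 2 were 366, 3750 and 630 at an adjusted p below 0.05 and 3-fold. T4 and B4 replicate 2 gave 999 and 621 without thinning and 149 and 195 at 1 depth. B4 replicate 1 gave 3549 with all reads kept and 3121 with the B4 IgG libraries exchanged. The share of B4 regions overlapping T4 was 2.82, 4.05, 15.8, 3.36 and 4.40% with all reads kept, the looser call, no thinning, exchanged IgG and 1 depth. The share of T4 regions overlapping B4 was 27.6% without thinning. Without B4 Myc replicate 1 the shares were 19.4% of T4 and 13.5% of B4 regions. The cause was not tested.

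limma called 0 windows in 9 of 10 alternatives, leaving out each B4 library included (0 to 0 in either direction). With a replicate block that ties the Myc and IgG libraries whose titles carry the repeat mark, and those without it, it called 1 higher and 28 lower in T4, on 1 residual degree of freedom. The labels do not say that the mark stands for a shared batch or animal: the B4 differences correlated at 0.0935 over 19965 windows, with 2 pairs.

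At the regions called in all 3 libraries, T4 minus B4 replicate 1 at matched depth lay between −1.58 and 0.74, each within its counting error of 3.52 to 4.57. It changed sign in 20 of 56 region and setting combinations, at 7 of 8 regions, to values between −1.44 and 0.91. No direction of Myc over IgG can therefore be read there. Myc RPM alone, without thinning, was lower in T4 at all 8, at 0.354 to 0.652 times B4 replicate 1. The rule by which such sign changes count as within error was set after they were seen. At the other 16 regions the sign held in all 112 combinations, although the interval of the value held 0 at 9. These 16 were chosen by the ratio of T4 to B4 replicate 1 in the same reads. Their sign was therefore largely set by the choice.

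At this depth an 8-fold excess in a bin was mostly not detectable, so absence from a list does not show absence of Myc.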

Other observations

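Windows of 100 kb were also compared, with Myc and IgG apart, a choice made after seeing the data. Of 23424 windows, 17 had T4 lower than both B4 libraries by at least 0.75 on the log2 scale in Myc and in IgG, and 2 had T4 higher. These 19 windows were chosen for Myc and IgG moving together, and Myc over IgG was not tested in them. Of the 17, 10 lay between chr4:111600001 and chr4:113000000. At chr4:111700001-111800000, T4 had 5.19 RPM in Myc and 2.25 in IgG, against 25.2 and 27.6 in B4 replicate 1 and 21.0 and 19.5 in B4 replicate 2. The T14 libraries had 27.8 and 20.5 RPM there, so the low level was in the T4 libraries and not in those of T cells at 14 h. At chr14:53000001-53100000, T4 had 17.2 and 20.9 RPM, against 41.6 and 52.6 in B4 replicate 1, and both T14 libraries were low as well, at 12.8 and 11.7 RPM. At chr3:131100001-131200000, T4 was high, with 111 and 93.0 RPM against 44.8 and 51.7 in B4 replicate 1.

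Myc and IgG of B4 replicate 1 both stood above the Myc and IgG libraries of T4 and B4 replicate 2 in 3 windows of 10 kb on chromosome 15. At chr15:102230001-102240000 they had 83.6 and 94.1 RPM, against 9.03 and 5.07 in T4, and IgG of B4 replicate 2 had 4.49. At chr15:61810001-61820000 they had 77.0 and 88.8 RPM, against 10.4 and 20.3 in T4 and 5.48 and 7.42 in B4 replicate 2. B4 Pol2 had 52.6 RPM in the former window and 276.8 RPM, more than B4 replicate 1, in the latter. At chr15:102250001-102260000, Myc and IgG of B4 replicate 1 had 25.7 and 33.0 RPM, against 4.97 and 3.38 in T4 and 1.61 and 2.54 in B4 replicate 2. Windows were chosen as raised in both libraries of B4 replicate 1 over both of replicate 2. Others on chromosomes 3, 4 and 7 passed that choice and also lay above T4. At chr4:3000001-3010000, B4 replicate 1 had 32.2 and 26.4 RPM, against 18.7 and 19.2 in T4 and 5.48 and 6.45 in B4 replicate 2. The T14 libraries titled Myc and IgG had 14.9 and 32.2 RPM there, so a high level was not confined to B4 replicate 1. At chr15:102230001-102240000 they had 1.71 and 8.83 RPM.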
